A study of Mus musculus with 33 samples.

Results

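HSF1, heat shock factor 1, is the transcription factor that drives induction of chaperone genes in heat-stressed cells. On heat shock it forms trimers and binds heat shock elements, inverted repeats of the pentamer nGAAn, in promoters and enhancers. In ChIP-seq an antibody pulls down DNA bound by its target, and cells without the target show what else the library contains. ChIP-seq with the antibodies labelled CS and MM in HSF1 knockout cells is described here in cells that were unheated or heated for 12 or 60 min, and the question is whether heat shock changed the antibody signal without HSF1.

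The cells were mouse embryonic fibroblasts (MEFs, fibroblasts grown from embryos) of strain background 129Sv.BALB/c and genotype HSF1-/-. Each time and antibody gave 1 peak list, so 6 of the 33 samples of the series are described. The groups were HSF1-/- cells before heat shock, HSF1-/- cells after 12 min and HSF1-/- cells after 60 min, each with CS and with MM, and wild type MEFs of the same background at the same times served for comparison. CS was a commercial antibody and MM a gift from another laboratory. The labels do not name the protein they were raised against, and both are read here as HSF1 antibodies because Hsf1 stands in the experiment name of the file headers. The labels also give neither the heat shock temperature nor the number of cultures or clones behind the HSF1-/- cells. Peak lists hold no expression values, so neither the loss of HSF1 nor the fibroblast identity could be checked in them. With 1 list per condition there is no replicate error, no test was run between times, and intervals are 95% exact (Clopper-Pearson) binomial intervals that cover counting error only. Where the same peaks or regions are looked up in lists of different times, the shares are paired. Whether such intervals overlap is a description and no test between times.

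Overlapping peaks of both antibodies at a given time, sharing at least 1 bp, made a region, and regions of the 3 times that overlapped were merged into a locus. The knockout lists gave 1263 loci, against 3627 in the wild type lists, of 4890 counted in all. A peak's tags are the reads the authors counted in it. The CS libraries held 9.95, 5.18 and 8.97 M kept tags (M as in Mb) before, at 12 and at 60 min and the MM libraries 12.1, 15.6 and 7.39 M. The CS library at 12 min and the MM library at 60 min were therefore the shallowest of their antibodies. The smallest peaks listed held 5, 4 and 5 tags with CS and 6, 6 and 5 tags with MM, which is where a region of both antibodies is found or missed. Mitochondrial DNA and 25 groups of crowded loci, in which a locus had 3 or more others within 50000 bp, stood apart and are given separately where they touch a result. The crowded groups held 191 loci, among them 17 around Sfi1 on chromosome 11 and 31 in 1 stretch of chromosome Y.

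Where a locus found by both antibodies lay just upstream of a transcription start, the bases themselves can be shown. The first pair below lie next to loci found by both antibodies at 60 min and not before, the next is one where both had a peak before and at 12 min and not at 60 min, and the last is a promoter that HSF1 is known to activate, for contrast. Each is the 250 bases before the RefSeq start (GRCm38.p6, the same primary assembly as the mm10 build of the peaks), 5′ to 3′ on the gene's strand. Capitals mark matches to an inverted pair of heat shock element units, GAANNTTC or TTCNNGAA, which read the same on both strands.
Ier3, chr17:35821463-35821712, plus strand: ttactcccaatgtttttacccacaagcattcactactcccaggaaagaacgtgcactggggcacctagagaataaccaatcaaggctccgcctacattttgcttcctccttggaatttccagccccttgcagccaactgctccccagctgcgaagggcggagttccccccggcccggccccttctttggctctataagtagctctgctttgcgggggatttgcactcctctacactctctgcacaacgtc
Cfap298, chr16:90934850-90935099, minus strand: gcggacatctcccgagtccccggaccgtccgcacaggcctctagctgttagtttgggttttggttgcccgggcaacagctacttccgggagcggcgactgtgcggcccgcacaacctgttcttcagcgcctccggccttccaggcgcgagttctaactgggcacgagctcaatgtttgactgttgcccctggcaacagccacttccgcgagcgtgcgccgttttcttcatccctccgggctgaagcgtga
Polr2a, chr11:69758634-69758883, minus strand: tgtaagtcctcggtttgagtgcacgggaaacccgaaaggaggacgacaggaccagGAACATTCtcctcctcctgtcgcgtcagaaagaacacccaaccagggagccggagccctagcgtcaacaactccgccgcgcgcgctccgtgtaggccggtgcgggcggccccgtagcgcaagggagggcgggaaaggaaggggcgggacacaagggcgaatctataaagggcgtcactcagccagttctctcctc
Hspa1b, chr17:34959239-34959488, minus strand: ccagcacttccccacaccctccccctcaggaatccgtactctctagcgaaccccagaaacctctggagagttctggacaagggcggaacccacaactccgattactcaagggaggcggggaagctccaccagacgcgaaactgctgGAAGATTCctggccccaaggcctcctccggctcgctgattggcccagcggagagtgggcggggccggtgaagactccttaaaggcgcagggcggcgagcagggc
The Polr2a and Hspa1b windows each held 1 such pair and the Ier3 and Cfap298 windows held none. Of 32851 RefSeq promoters, 4218 (12.8%) held a pair in their 250 upstream bases, and 153 (0.466%) held 3 alternating units, a run that contains the pair. Loci found at 60 min and not before touched 4 such upstream windows, none with a pair, and loci found before and not at 60 min touched 7, of which 3 held a pair and none 3 units. Wild type regions at 60 min touched 672 windows, of which 160 (23.8%) held a pair and 36 (5.36%) held 3 units. With so few knockout windows these counts are descriptions only. No knockout list had a peak that touched the printed Hspa1b window. Wild type peaks that touched it held 1402 (CS) and 1166 (MM) tags at 60 min, counted over the whole peaks, and there was none before heat shock.

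The first comparison set 60 min against the cells before heat shock. Regions of both antibodies numbered 970 before heat shock, then 855 (12 min) and 999 (60 min). In wild type cells the same rule found 121, 1412 and 3455. Of the 1263 knockout loci, 217 (17.2%) were found at 60 min and not before and 198 (15.7%) were found before and not at 60 min. Of the 3627 wild type loci, 3337 (92.0%) were found at 60 min and not before and 2 the other way round. The knockout lists thus gave similar numbers of loci in both directions, and 624 loci (49.4%) were found at all 3 times. A further 130 loci were found before and at 60 min and missed at 12 min, and the part of library depth in this was not tested. Only at 60 min lay 172 loci, only before heat shock 145 and only at 12 min 94. Knockout peaks were called with no control library and wild type peaks against IgG, so region numbers of knockout and wild type cells are not on the same scale.

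**Figure D1:**
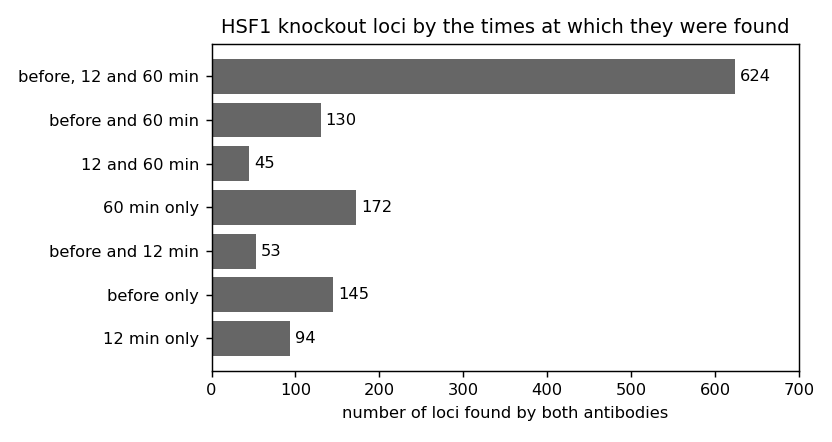
Number of HSF1 knockout loci found by both antibodies (horizontal axis), by the times at which they were found (vertical axis). The bar for all 3 times, 624 loci, is the longest, and the bars for 60 min only (172) and before only (145) are of similar length.

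The loci found at 60 min and not before were small. Their median width was 113 bp, and their peaks held a median of 7 CS and 6 MM tags at 60 min. Loci found before and not at 60 min had a median width of 120.5 bp and a median of 7 CS and 9 MM tags before heat shock. Loci found at all 3 times were wider, with a median of 159 bp, and held a median of 19, 11 and 18 CS tags and 22, 22 and 15.5 MM tags. The loci of both one-way classes thus sat near the smallest peaks that the lists hold. Of the 217 loci found at 60 min and not before, 116 (53.5%) already had a peak of 1 antibody before heat shock, and 101 (46.5%, interval 39.8% to 53.4%) had none. Of the 198 loci found before and not at 60 min, 140 (70.7%) still had a peak of at least 1 antibody at 60 min, and 58 (29.3%, interval 23.1% to 36.2%) had none. CS had a peak at 104 and MM at 40. A few loci, such as the one inside Akap9, had peaks of both that did not overlap. At 12 min, 45 of the 217 (20.7%) and 53 of the 198 (26.8%) were found by both antibodies. The lower depth of the MM library at 60 min moves with the second class, and its part was not tested. Among peaks with at least 10 tags the classes held 52 and 142 loci, and with each list shortened to its strongest peaks, as many as the shortest list holds, 192 and 167.

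Loci with many tags in either one-way class were few. At least 20 tags with both antibodies were held by 8 of the 217 at 60 min and by 16 of the 198 before heat shock, and 6 and 11 of these lay in crowded groups. The other 2 of the 8 lay in mitochondrial DNA and on chromosome 8 at 20330829 to 20331604, where CS had 24 and MM 63 tags at 60 min and neither antibody had a peak before. The mitochondrial peaks were the largest of the 60-min class. Before heat shock neither antibody had a mitochondrial peak. CS had 5 with 1147 tags at 12 min and 2 with 2484 tags at 60 min, and MM had 1 with 397 tags at 60 min. No wild type list had one, but those lists were called against IgG and the knockout lists with no control library. Whether the wild type libraries held such signal therefore cannot be read from them. The fold enrichments of the mitochondrial knockout peaks, the authors' values, were low, between 2.83 and 5.01. Around Sfi1, a centrosome gene in a repeated stretch of chromosome 11, single loci passed in opposite directions. The locus at 3150679 to 3151592 had 108 CS and 95 MM tags at 60 min and no peak before. The locus at 3159397 to 3160451 had no CS peak and 63 MM tags at 60 min, against 165 CS and 156 MM tags before.

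The peaks that one antibody gained at 60 min were then looked up in the lists of the other, which had no part in choosing them. CS had 4876 peaks at 60 min that overlapped no CS peak before. MM found 161 of them (3.30%, interval 2.82% to 3.84%) at 60 min and 180 (3.69%, interval 3.18% to 4.26%) before heat shock. The MM lists thus did not see more of the CS gain after heat shock than before it. MM had 2543 peaks at 60 min that overlapped no MM peak before. CS found 172 of them (6.76%, interval 5.82% to 7.81%) at 60 min and 118 (4.64%, interval 3.86% to 5.53%) before heat shock, and these intervals do not overlap. In the other direction, MM lost 2222 peaks at 60 min. CS found 231 of them (10.4%, interval 9.16% to 11.7%) in its own 60-min list. In its list from before heat shock CS found 179 (8.06%, interval 6.96% to 9.27%). CS thus found more at 60 min of what MM gained and also of what MM lost, but the intervals of the losses overlap. With at least 10 tags per peak, CS found 33.3% (interval 23.2% to 44.7%) of the MM gains at 60 min and 13.6% (interval 6.98% to 23.0%) before. Of the MM losses it found 39.6% (interval 34.7% to 44.7%) at 60 min and 34.4% (interval 29.6% to 39.4%) before. There too the intervals of the MM losses overlap and those of the MM gains do not. The reverse look-up at this setting went the other way. Of 290 CS gains MM found 15.9% at 60 min and 35.5% before. Of 220 CS losses it found 14.1% at 60 min and 37.3% before. In both of these pairs the intervals do not overlap, with the lower share at 60 min. Of the 6733 CS peaks lost at 60 min, MM found 90 (1.34%) at 60 min and 103 (1.53%) before. The wild type lists gave another picture: of 4597 CS peaks gained at 60 min MM found 71.4% at 60 min and 1.33% before, and of 4430 MM peaks gained CS found 75.1% at 60 min and 1.31% before.

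**Figure D2:**
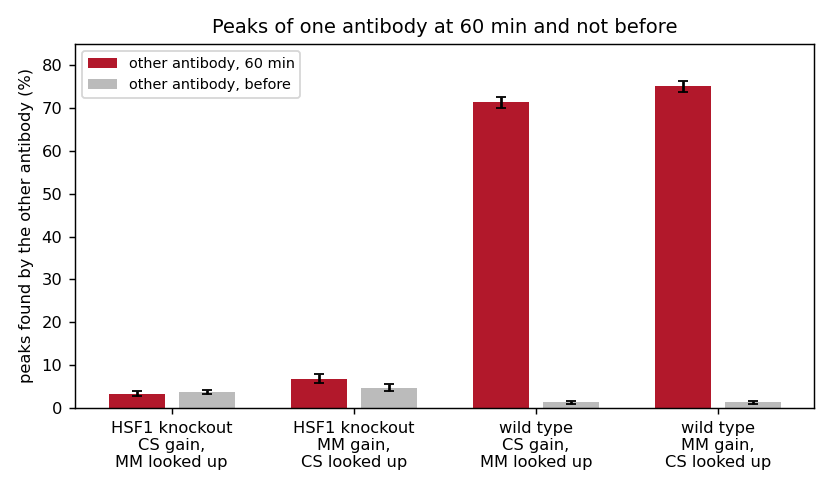
Percent of the peaks that one antibody had at 60 min and not before (vertical axis) that the other antibody found at 60 min (red) and before heat shock (grey), in HSF1 knockout and wild type lists, with 95% exact intervals. The knockout bars lie between 3.30% and 6.76%, and the wild type bars at 60 min are 71.4% and 75.1%.

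Tags at loci where both antibodies had a peak at 60 min and before were compared next, scaled to tags per M kept tags. At 759 loci both antibodies had a peak at both times, whether or not the peaks of a time overlapped each other. A few loci counted above as not found at 60 min are therefore among them. The median ratio, 60 min over before, was 1.14 with CS and 1.14 with MM. Both antibodies were at least 2 fold higher at 60 min at 7 loci (0.922% of those measured) and at least 2 fold lower at 3 (0.395%), while CS alone gave 65 and 18 and MM alone 40 and 12. With the median ratio of each antibody set to 1, 2 loci were higher and 3 lower, so the balance between the directions turned. Across the 759 loci the log2 ratios of CS and MM had r = 0.31 and rho = 0.31, a description of points that share libraries and depth. With at least 50 tags in all 4 lists there were 65 loci, and none was 2 fold higher or lower with either antibody. Their ratios ran between 0.61 and 1.56 with CS and between 0.68 and 1.64 with MM.

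**Figure D3:**
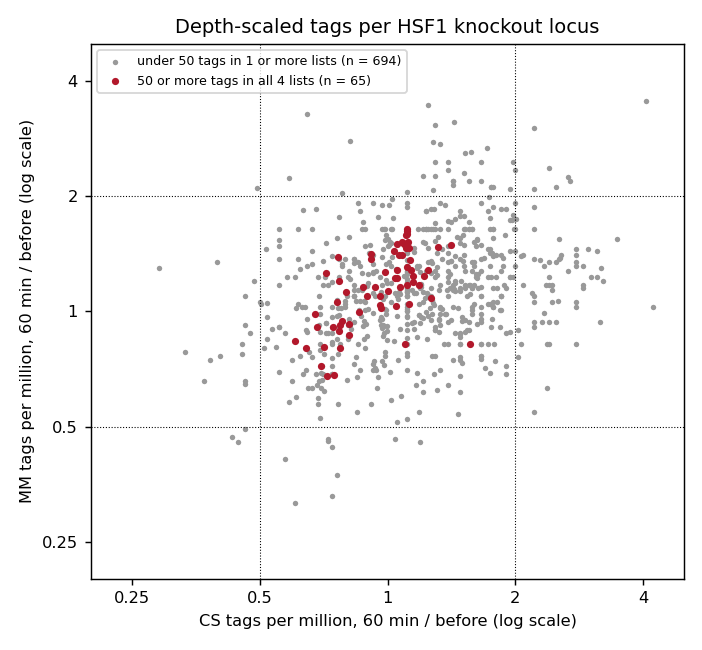
Depth-scaled tags at 60 min over those before heat shock for CS (horizontal axis) and MM (vertical axis), both on log scales, for the 759 HSF1 knockout loci with peaks of both antibodies at both times. Dotted lines mark 2 fold. The 65 loci with at least 50 tags in all 4 lists (red) lie inside the lines, and 7 of the loci with fewer tags lie in the upper right corner.

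None of the 7 higher loci lay at the end of a protein-coding gene. The largest ratios were inside Nt5c2, a cytosolic nucleotidase gene on chromosome 19, with 22 CS and 13 MM tags at 60 min and 6 CS and 6 MM tags before, which is 4.07 and 3.56 fold after scaling. Inside Cbr3, a carbonyl reductase gene, 10 CS and 11 MM tags at 60 min stood against 5 and 6 before (2.22 and 3.01 fold). Inside Slco5a1, a transporter gene, 17 CS and 12 MM tags at 60 min stood against 7 and 9 before (2.69 and 2.19 fold). All these loci were also found at 12 min, with 10 CS and 9 MM tags in Nt5c2, 7 and 13 in Cbr3 and 6 and 9 in Slco5a1. Of the 3 lower loci, the one inside Wdr92 had 8 CS and 5 MM tags at 60 min and 20 and 18 before. The one inside Akap9, which lies in a crowded group, had 10 and 12 tags at 60 min and 24 and 40 before. At 12 min over before, with the same lists from before heat shock, no locus of 683 was 2 fold higher with both antibodies and 11 were lower. The median ratio at 12 min was 1.13 with CS and 0.78 with MM.

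At gene ends the knockout lists held few regions of both antibodies. A region counts as at a gene end when its summit midpoint lies within 1000 bp of either end of a protein-coding gene. This held for 30 of 21887 genes before heat shock (0.137%), for 26 at 12 min (0.119%) and for 36 at 60 min (0.164%). Regions at 60 min and not before lay at the ends of 20 genes (0.0914%), and regions before and not at 60 min at those of 14 (0.064%). In wild type cells 42 genes (0.192%) had a region of both antibodies without heat shock, 330 (1.51%) after 12 min and 559 (2.55%) after 60 min. Of the 217 loci found at 60 min and not before, 18 (8.29%, interval 4.99% to 12.8%) were at such a gene end, and of the 198 found before and not at 60 min 13 (6.57%, interval 3.54% to 11.0%). The share was 2.72% (17 of 624, interval 1.59% to 4.33%) among loci found at all 3 times. The intervals of the pair of one-way classes overlap, and that of the class lost at 60 min also overlaps the interval of the loci found at all 3 times.

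The 10 loci at gene ends with the best ranks among those found at 60 min and not before lay beside genes of unrelated roles. The first lay 84 bp from Bcl2l10, a Bcl-2 family gene, with 11 CS and 9 MM tags at 60 min and no CS and 6 MM tags before. The locus beside Troap and C1ql4 had 12 CS and 8 MM tags at 60 min, no peak before, and 5 and 8 tags at 12 min. That beside Stn1, a telomere maintenance gene, had 6 and 8 tags at 60 min, and CS already had 6 before. Loci at Deaf1, Gja6, Txk, Polr2f, Rab40b, Troap itself and Pex3 with Adat2 followed, each with 5 to 9 tags per antibody at 60 min. Of these, Deaf1, Gja6 and Pex3 already had a CS peak before heat shock, of 5, 6 and 7 tags. At Cfap298, a cilia gene whose promoter is printed above, CS had 5 and MM 8 tags at 60 min, MM had 9 at 12 min, and neither had a peak before.

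Among the loci found before and not at 60 min, Taco1, a mitochondrial translation activator, had 7 CS and no MM tags at 60 min and 10 and 10 before. Polr2a, which encodes the largest subunit of RNA polymerase II, had 9, 11 and 9 CS tags and 12, 19 and no MM tags before, at 12 and at 60 min. The CS signal at Polr2a was thus as large at 60 min as before. Vmn2r29, a vomeronasal receptor gene, had no peak at 60 min and 6 and 11 tags before. Mrpl20, a mitochondrial ribosome gene, had none at 60 min and 7 and 6 before. Slc33a1, an acetyl-CoA transporter, had none at 60 min and 5 and 10 before. Pdrg1, Poldip3, Gtf3c6 and Gm10340 had 5 to 10 CS and 6 to 11 MM tags before heat shock and no peak at 60 min. Fyco1 had 10 MM tags at 60 min and 6 tags of each antibody before.

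The gene-end loci found at all 3 times included some with many tags. Oasl1, an interferon-induced gene, had 57, 30 and 61 CS tags and 74, 87 and 44 MM tags before, at 12 and at 60 min, which is 1.19 fold with CS and 0.98 fold with MM at 60 min over before. Rps29, a ribosomal protein gene whose end lies beside the 7SL RNA gene Rn7s1, had 52, 42 and 74 CS tags and 66, 49 and 55 MM tags. Lars2, the mitochondrial leucyl-tRNA synthetase, had 199, 70 and 125 CS tags and 203, 101 and 89 MM tags, or 0.70 and 0.72 fold. Mt1, a metallothionein gene with its own metal response elements, had 10, 6 and 16 CS tags and 14, 10 and 9 MM tags. All of them had both antibodies' peaks before any heat shock.

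Chaperone genes, the main targets of HSF1, were then counted. Among 42 genes of cytosolic chaperones none had a region of both antibodies at any time in knockout cells, where 0.137%, 0.119% and 0.164% of all protein-coding genes had one before, at 12 and at 60 min. A count of 0 in 42 is near that background. In wild type cells 10 of the 42 (23.8%) had one before, 29 (69.0%) at 12 min and 28 (66.7%) at 60 min, against 0.192%, 1.51% and 2.55% of all protein-coding genes. A peak of either antibody lay at the ends of 3, 8 and 4 of the 42 in knockout cells before, at 12 and at 60 min (7.14%, 19.0% and 9.52%, against 5.57%, 5.16% and 5.17% of all protein-coding genes). These peaks were small, with 4 to 8 tags each. Hspa1b, an inducible Hsp70 gene with the near-identical copy Hspa1a, between which reads may be split, had MM peaks of 6 and 8 tags before and at 12 min and none at 60 min. Hsp90ab1, a cytosolic Hsp90, had a CS peak of 8 tags at 60 min, where the wild type lists had 1818 CS and 1429 MM tags. Hspa8, the constitutive Hsp70, had a CS peak of 5 tags inside the gene before heat shock and none later, where the wild type lists had 1156 CS and 938 MM tags at 60 min. Among 14 genes of the chaperonin TRiC and of prefoldin, 4, 1 and 1 had a peak of either antibody (28.6%, 7.14% and 7.14%). Among 13 mitochondrial chaperones and proteases it was 2, 1 and 1 (15.4%, 7.69% and 7.69%). Hspd1 and Hspe1, which share a promoter, accounted for both before heat shock with the same CS peak of 5 tags. Among 20 endoplasmic reticulum folding genes it was 1, 2 and 4 (5%, 10% and 20%), the largest being 15 MM tags at Atf4, a stress transcription factor, at 60 min.

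Immediate early genes, which growth factors and stress switch on within minutes, were the list with the largest share of members with a peak at 60 min. Of 26 such genes, 3 had a peak of either antibody at an end in unheated cells (11.5%), 9 at 12 min (34.6%) and 8 at 60 min (30.8%). Over all protein-coding genes the shares were 5.57%, 5.16% and 5.17%. Restricted to peaks with at least 10 tags, 1, 2 and 3 of the 26 genes had one at an end, against 53, 61 and 36 of all 21887 protein-coding genes (0.242%, 0.279% and 0.164%). No immediate early gene had a region of both antibodies before or at 12 min, and 2, Ier3 and Ccn2, had one at 60 min. At Ccn2, which encodes a secreted matrix-associated factor, no library had a peak in the gene or within 1 kb of it before heat shock. CS had 5 tags there at 12 min, and at 60 min CS had 29 tags in 3 peaks and MM 12 tags in 1. The peaks of both antibodies at Ccn2 met at chr10:24599428-24599656, 831 bp from a gene end, with 9 CS and 12 MM tags. Ccn1, of the same family, had 25 CS and no MM tags before, 28 and 78 at 12 min, and 75 and none at 60 min. The CS and MM peaks in Ccn1 overlapped at no time. At Ier3, a gene of stress and survival signalling whose promoter is printed above, CS had 14, 9 and 5 tags and MM none, none and 12. Its MM peak of 7 tags at 60 min lay over the start, and a CS peak of 7 tags had lain upstream before heat shock.

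Other immediate early genes had a peak of only 1 antibody at a time or peaks of both in different places. Egr1, an early growth response transcription factor, had no peak before, 6 CS tags at 12 min, and 5 CS and 5 MM tags in separate places at 60 min. Jun, an AP-1 subunit, had a MM peak of 10 tags at 12 min and a CS peak of 6 tags at 60 min that touched its upstream window. Wild type peaks that touched this window held 293 CS and 235 MM tags at 60 min, counted over the whole peaks. Ier5 had 11 CS tags at 60 min, and Fosl1 had 6. Junb, Jund and Dusp1 had CS peaks of 7, 4 and 5 tags at 12 min and none at the other times. Klf2 had a CS peak of 7 tags before heat shock and none later. Arc, an activity-regulated gene outside the list, had a region of both antibodies at 60 min, chr15:74672376-74672505, with 6 CS and 8 MM tags and no peak before or at 12 min.

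Genes of the actin cytoskeleton were counted at their ends and over their whole length. At gene ends 1, 8 and 6 of the 32 had a peak of either antibody before, at 12 and at 60 min (3.13%, 25% and 18.8%), and 1 had a region of both antibodies, Acta2 at 12 min. Counted over the whole gene and 1 kb on either side, the numbers were 14, 12 and 13 of 32, against 18.4%, 18.3% and 16.6% of all protein-coding genes, so the difference between times was seen at the ends and not over the genes. Immediate early genes counted in that way gave 4, 10 and 10 of 26. Restricted to peaks with at least 10 tags, none, 3 and none of the 32 had one at an end, against 0.242%, 0.279% and 0.164% of all protein-coding genes. Actb, cytoplasmic beta-actin, had 17 CS and no MM tags before, 12 CS and 49 MM tags at 12 min and none at 60 min. Actg1, gamma-actin, had no peak before, 9 CS and 17 MM tags at 12 min, and 6 MM tags at 60 min. The CS and MM peaks at 12 min did not overlap in Actb or in Actg1. Acta2, smooth muscle alpha-actin, had 4 CS and 22 MM tags at 12 min and none at either other time. Cnn2, a calponin, had 16 CS tags at 12 min and 6 MM tags at 60 min. Flnc, of the same list, had 11 CS tags before, 8 at 12 min and none at 60 min, with no MM peak at any time.

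The tubulin gene Tubb4b also had its tags at 12 min. It had 6 CS and 9 MM tags in a region at 12 min and no peak at the other times. At 12 min the MM library was the deepest and the CS library the shallowest of their antibodies, so these peaks were seen with 15.6 and with 5.18 M tags. For Acta2, Actb and Actg1 the wild type lists, called against IgG, held no peak of CS or MM at 60 min. Among 65 ribosomal protein genes, 8, 9 and 12 had a peak of either antibody (12.3%, 13.8% and 18.5%), and only Rps29 had a region. Of all protein-coding genes, 5.57%, 5.16% and 5.17% had such a peak before, at 12 and at 60 min. In the remaining lists (metal, heme and oxidative stress, interferon and antiviral, extracellular matrix, cell cycle) 1, 3 to 4 and 1 to 2 members had a peak before, at 12 and at 60 min. The shares of members with a peak were 4.55% to 5.56%, 15.8% to 22.2% and 4.55% to 11.1%. Mt1 and Oasl1 were the only members of these lists with a region. Of 6 heat shock factor genes, Hsbp1, an HSF1 binding protein, had a CS peak of 5 tags at 60 min.

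**Figure D4:**
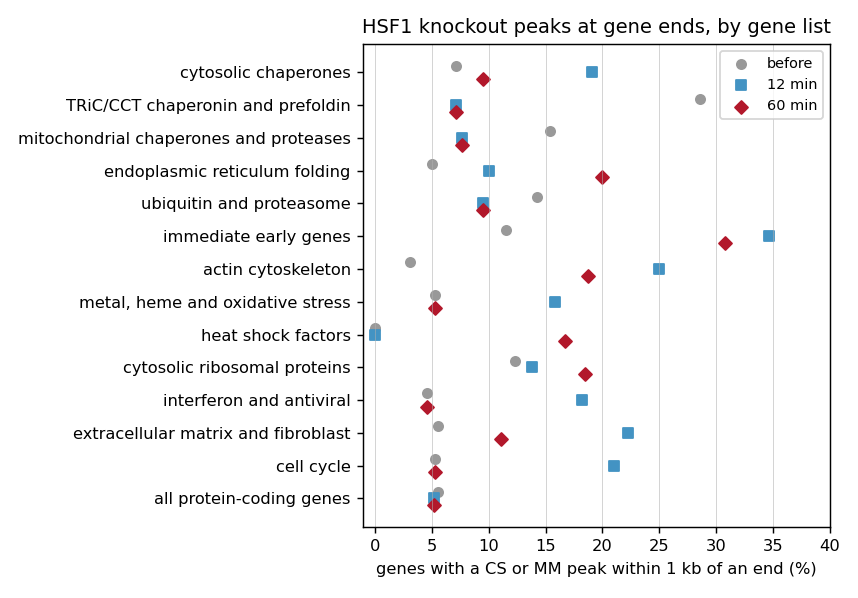
Percent of the genes of each list (vertical axis) with a CS or MM peak within 1 kb of a gene end in HSF1 knockout cells (horizontal axis), before (grey), at 12 min (blue) and at 60 min (red). Immediate early genes lie at 11.5%, 34.6% and 30.8% and actin cytoskeleton genes at 3.13%, 25% and 18.8%, with all protein-coding genes between 5.16% and 5.57%.

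**Figure D5:**
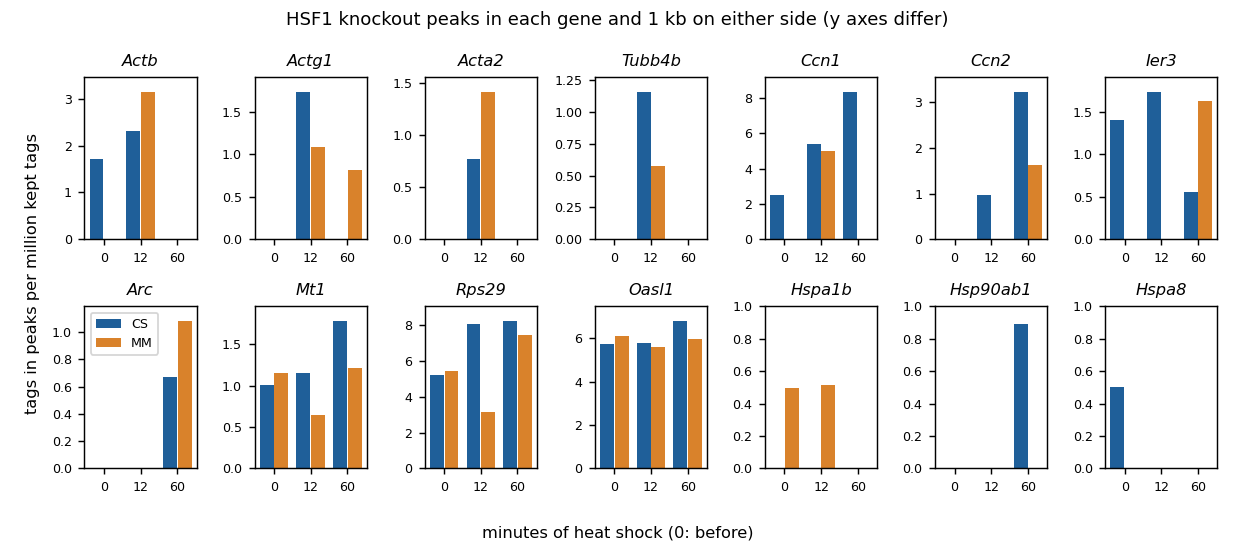
Tags in HSF1 knockout peaks within each gene and 1 kb on either side, per M kept tags of the library (vertical axes, which differ between panels), by minutes of heat shock (horizontal axes) for CS (blue) and MM (orange). Actb, Actg1, Acta2 and Tubb4b are highest at 12 min, Ccn2 and Arc at 60 min, and Oasl1 and Rps29 have peaks of both antibodies in every list. Tags are summed over each span, and the CS and MM peaks of a gene do not always overlap.

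The last comparison asked whether heat shock brought knockout signal to the places that HSF1 occupies in wild type cells. Of the 3455 wild type regions at 60 min, CS peaks of the knockout overlapped 80 (2.32%, interval 1.84% to 2.87%) at 60 min and 70 (2.03%, interval 1.58% to 2.55%) before. MM peaks overlapped 37 (1.07%, interval 0.755% to 1.47%) at 60 min and 46 (1.33%, interval 0.976% to 1.77%) before. At 12 min it was 59 with CS and 54 with MM. The intervals of the times overlap for either antibody, and the knockout peaks in these regions held a median of 5 tags with CS and 5 with MM at 60 min. A region of both antibodies in knockout cells overlapped 1 of the 3455 at 60 min, 1 before and none at 12 min. The one at 60 min was that at Arc, where the wild type region held 323 CS and 252 MM tags against 6 and 8 in the knockout. The one before heat shock lay on chromosome 13, 35309 bp from the nearest end of a protein-coding gene, Adamts16, with 5 CS and 6 MM tags.

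Of the 1412 wild type regions at 12 min, knockout CS peaks overlapped 44 (3.12%) at 60 min and 35 (2.48%) before, and MM peaks 21 (1.49%) at 60 min and 34 (2.41%) before. CS was thus somewhat higher and MM somewhat lower at 60 min, with intervals that overlapped. Of the 121 wild type regions before heat shock, CS peaks overlapped 7 at 60 min and 8 before, and MM peaks 4 at both times. No wild type region overlapped any of the 624 knockout loci found at all 3 times. Wild type peaks were called against IgG and knockout peaks with no control library. The absence therefore cannot show whether the wild type libraries held signal at these loci.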

How the data were processed

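Peak lists of 6 HSF1-/- and 6 wild type ChIP libraries were used. Per the file headers, MACS 1.4.2 was run by the authors with a cutoff of 1e-04 on p and at most 1 tag kept per position, the knockout lists with no control library (local background of the same library) and the wild type lists against IgG from 2 merged replicates. The build was mm10, per the submitters' processing notes. No aligner is named in the labels or headers. Each deposited peak has, per the file headers, a tag count, a score made from the log10 of its p-value, and a fold enrichment over background, a ratio made by the authors. Tags are 36 bp, and the fragment length estimated for knockout libraries was 33 to 40 bp. Duplicate removal caps the tags of very narrow, strong places. Lists of SRF and libraries without a peak list were not used.

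Peaks were grouped into regions and loci by overlap of at least 1 bp with Python 3.11.15, numpy 2.4.6, pandas 2.3.3 and SciPy 1.17.1, and figures were drawn with matplotlib 3.10.9. Depth-scaled tags are tags per M kept tags (M as in Mb). Genes came from the GRCm38.p6 RefSeq table (21887 protein-coding genes on chromosomes 1 to 19, X and Y), which gives no strand. The 13 gene lists hold 320 names, of which 317 were found. Grouping was tested on simulated data. Named genes were the 10 gene-end loci of each class with the best mean fold rank of both antibodies, list members with a region, the 5 largest and smallest called ratios, and the best loci away from gene ends. Other list members, Arc, Cfap298, Tubb4b and the loci with the most tags were named after their values were seen. The members and lists were chosen with earlier results of these data known. Some results are not reported here. There was 1 list per condition, so no test compared times, and the comparisons of 12 and of 60 min share the lists from before heat shock.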

Additional observations from a re-analysis of the deposited data

How the results depend on the processing

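No paired analysis was possible because each condition had 1 list and the labels give no replicate numbers. Loci found at 60 min and not before, before and not at 60 min, at all 3 times and at 12 min only numbered 217, 198, 624 and 94. With p at or below 1e-10 they numbered 127, 104, 343 and 11. Asking for 50% overlap gave 405 at all 3 times, with the other classes within 1.5 times. Counting a locus as absent only without a peak of either antibody gave 101, 58 and 30 for the 3 one-way classes. CS alone gave 4875, 6733 and 4240 for these and MM alone 2535, 2212 and 4859. Peaks with at least 10 tags gave 52 (60 min and not before), 314 (all 3 times) and 18 (12 min only). Shortening each list to as many of its strongest peaks as the shortest list holds, a setting added after seeing the data, gave 54 at 12 min only.

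CS gains found by MM at 60 min and before were 35.2% and 36.8% at p of 1e-10 or less, 15.9% and 35.5% with at least 10 tags, and 4.28% and 4.38% with 50% overlap. MM gains found by CS at 60 min and before were 58.2% and 27.9% at p of 1e-10 or less and 33.3% and 13.6% with at least 10 tags. MM losses found by CS at 60 min and before were 53.2% and 42.9%, and 39.6% and 34.4%, under the same settings. Loci higher with both antibodies at 60 min numbered 2 with the median ratio set to 1 (against 3 lower, the reverse of the reported order), 55 at 1.5 fold, 1 at 3 fold and 3 at p of 1e-10 or less. Loci lower numbered 13 at 1.5 fold, 0 at 3 fold and 0 at p of 1e-10 or less. The share of one-way loci that overlapped a wild type region at 60 min was 0% for 60 min and not before and 0% for before and not at 60 min, both with 50% overlap and with p of 1e-10 or less.

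Genes with a region of both antibodies at an end before, at 12 and at 60 min numbered 15, 16 and 20 within 500 bp, 168, 137 and 177 within 5 kb, 10, 8 and 10 at p of 1e-10 or less, and 12, 9 and 10 with at least 10 tags. Actin cytoskeleton genes with a peak of either antibody numbered 2 at 60 min within 500 bp, 10 before heat shock within 5 kb, 0, 0 and 0 at p of 1e-10 or less, 0, 3 and 0 with at least 10 tags, and, over whole genes, 14 before and 13 at 60 min. Immediate early genes numbered 6 before heat shock within 5 kb, 0, 1 and 1 at p of 1e-10 or less, and 1, 2 and 3 with at least 10 tags. Settings over whole genes and with at least 10 tags at gene ends were added after seeing the data. The causes were not tested. Of 148 recalculated values 45 stayed near the value reported. With CS alone, and with at least 10 tags (52 against 142), fewer loci were found at 60 min and not before than the other way round, which is the reverse of the reported order. Most peaks of the one-way classes held under 10 tags, and what deeper libraries would show was not tested.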

Other observations

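Away from gene ends, the best ranked loci found at 60 min and not before lay inside Nr3c2, Xpo4, Fgf12 and Diaph2 and 8772 bp from Fshb. At Nr3c2, the mineralocorticoid receptor gene, CS had no peak, 8 and 16 tags before, at 12 and at 60 min and MM had no peak, 9 and 10. At Xpo4, a nuclear transport receptor gene, CS had 9, 8 and 18 tags and MM none, 13 and 10. The best ranked loci found before and not at 60 min included 1 inside Cntnap5b, with 17, 12 and 8 CS tags and 16, 11 and no MM tags. At the next, inside Zfp185, CS had 13, 5 and 8 tags and MM 15, 7 and none. All 5 of these best ranked loci found before and not at 60 min had a CS peak of 8 tags at 60 min.

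At loci found by both antibodies at 12 min and before, the MM ratio was 0.78 at the median and 124 of 683 were at least 2 fold lower with MM, against 24 with CS. The 12-min ratios of CS and MM had r = 0.07 and rho = 0.01 across the loci.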
